A study of Drosophila melanogaster with 12 samples.

Results

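The genes described here encode the machinery of DNA replication and the regulators that switch it on at the G1/S transition. The list holds 45 genes, fixed by name and by role, and 37 of them were measured by a probe set that the platform annotation gives 1 gene symbol, out of 11982 genes measured in this way. Each of the 37 has 1 such probe set, and RpA-70 was found under its other symbol RPA1 through its gene number. Values for Orc3, Orc6, geminin, Mcm7, PolD1, RnrS, E2f1 and dap were not analysed here.

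RNA came from Kc167 cells, a Drosophila line of embryonic origin with hemocyte features. The 12 Affymetrix arrays form 4 groups of 3, named here as the labels do. The control is Kc167 cells alone. The group called PTIP was treated with double-stranded RNA (dsRNA) to that gene, the group called Pc/ph with dsRNAs to Polycomb and polyhomeotic, and the group called Pc/ph+PTIP with all of these. Treated wells got 15 µg for 1000000 plated cells, with fetal calf serum brought to 5% an hour later and culture for 6 days. The labels name no dsRNA for the control, so an effect of dsRNA as such and an effect of its target cannot be told apart against control. PTIP works with enzymes that methylate histone H3, a mark of active genes, while Pc and ph are subunits of a Polycomb complex that keeps genes silent.

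Before S phase, the origin recognition complex, Cdc6 and the Cdt1 homolog dup load the ring-shaped MCM helicase onto origins, which licenses them. Cdc7 kinase and cyclin E with Cdk2 then help convert the loaded ring into an active helicase together with Cdc45 and the GINS complex, and polymerases, the sliding clamp and its loader copy the opened strands. Many of these genes are classical targets of E2F/Dp factors in flies, where E2f1 mainly activates, E2f2 mainly represses and the retinoblastoma protein Rbf restrains E2f1. In a mixed culture their transcripts are highest in cells near or in S phase. In bulk RNA a larger share of such cells and more transcript per cell cannot be told apart.

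All values are log2 RMA signals, and differences are log2 differences, so that 1 unit is a doubling of the signal. Array medians were 5.62 to 5.77 on the replicate 1 arrays of the 4 groups and 5.83 to 5.88 on the other 8. The upper quartiles differed more, at 8.65 to 8.95 and 9.62 to 9.74. PTIP 1 had the lowest upper quartile of the replicate 1 arrays and Pc/ph 2 that of the rest. Replicate 1 thus stood apart in every group. On it 36 of the 37 members were lower, where 87.2% of all genes were, by a median of -0.60 against -0.43 over all genes. The part of such array-wide differences in the members' changes was not tested. The fit therefore carries the replicate number as a block, and results are also given for replicates 2 and 3 alone. That second fit has 2 arrays a group and leaves out replicate 1. Its errors and p-values thus do not cover the spread among all 3 replicates. A gene is called where limma's adjusted p is under 0.05. The 7 Y-linked genes, absent from this female line, read 4.05 to 5.57, and all 37 members lay above that range on every array, with Rbf lowest at 6.39. On all arrays of every group 10 of 10 hemocyte-like markers, 4 of 5 neuronal, 1 to 2 of 6 germline, 0 of 3 muscle and 0 of 3 fat body markers lay above it too.

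Pc stood at 19.9% of control in Pc/ph cells (log2 change -2.33 ± 0.20 SE, n = 3, adjusted p = 2.51e-04 in limma). In Pc/ph+PTIP cells it was at 59.7% (adjusted p = 0.0601) and stood 1.59 log2 units above Pc/ph cells (adjusted p = 0.00208). The polyhomeotic genes ph-p and ph-d had no single-symbol probe set, so their depletion was not read. Ptip was at 73.2% of control in PTIP cells (adjusted p = 0.296 in limma) and at 73.7% in Pc/ph+PTIP cells (adjusted p = 0.339), so depletion of the target itself was not called in either group. Against the same-numbered Pc/ph array, Ptip on the arrays labelled Pc/ph+PTIP differed by -0.82, 0.05 and 0.12. It was lower in replicate 1 and not lower in replicates 2 and 3, a limit on every direction drawn from those labels.

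PTIP against control asks which transcripts differ when PTIP is targeted and Polycomb is left in place. All 8 role groups had medians above 0, from 0.17 for the clamp and strand-processing genes to 0.49 for the MCM helicase. Of the 37 members 33 were above 0, where 58.2% of all genes were, with a median of 0.24 against 0.03 over all genes. Limma called 6 of the 37 higher and 0 lower, where 3.46% of all genes were called higher and 4.68% lower. The arrays of the groups did not overlap for 4 members, all higher (Mcm5, Mcm6, RpA-70 and E2f2), against 3.23% of all genes. The 6 called members are the helicase subunits Mcm6, Mcm5 and Mcm3, the GINS subunit Sld5, the primase subunit Prim1 and the transcription factor E2f2. In replicates 2 and 3 alone 23 of 37 rose and 0 fell, with a median of 0.41, where 10.1% of all genes were called higher.

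Of the 5 MCM subunits measured 3 were called, the most of any role group. Mcm6 lay at 11.69, 12.20 and 12.06 in control replicates 1, 2 and 3, at 12.23, 12.68 and 12.77 in PTIP cells, at 12.11, 11.99 and 12.13 in Pc/ph cells and at 12.29, 12.63 and 12.68 in Pc/ph+PTIP cells. All 6 arrays that received PTIP dsRNA lay above all 6 that did not. Its change in PTIP cells was 0.58 ± 0.11 (SE, n = 3, adjusted p = 0.0166 in limma), or 1.49-fold. Mcm5 read 11.56, 11.61 and 11.59 in control, 11.76, 12.20 and 12.27 in PTIP, 11.71, 11.42 and 11.58 in Pc/ph and 11.89, 12.14 and 12.17 in Pc/ph+PTIP cells. Here too the 2 sets of 6 arrays did not overlap, and replicates 2 and 3 of the PTIP-targeted groups stood 0.53 or more above their controls. The share of all genes with such a split of 6 and 6 arrays was not computed, so the split adds no support to these calls. Mcm5 rose by 0.49 ± 0.12 (adjusted p = 0.0431 in limma). Mcm3 read 10.94, 11.45 and 11.28 in control and 11.22, 11.88 and 12.11 in PTIP cells, a rise of 0.52 ± 0.12 (adjusted p = 0.0363 in limma), with overlap because replicate 1 was low in both groups. The fly Mcm4, dpa, was at 0.45 (adjusted p = 0.0664) and Mcm2 at 0.22 (adjusted p = 0.387), and neither was called. Over replicates 2 and 3 all 5 MCM genes measured rose, by 0.41 to 0.63.

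**Figure D1:**
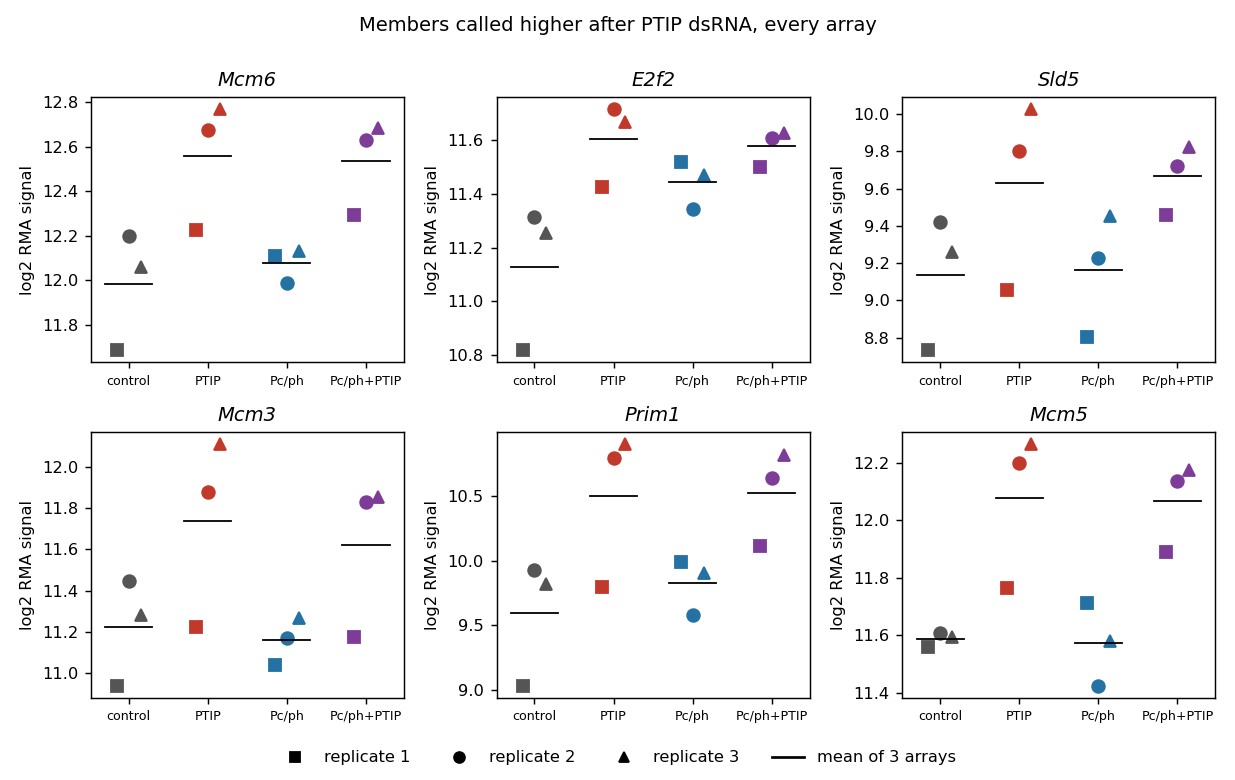
Log2 RMA signal (vertical axes, own scale per gene) of the 6 members called higher in PTIP cells, on each of the 12 arrays by group. Marker shape gives the replicate number and the line the mean of 3 arrays. The PTIP and Pc/ph+PTIP arrays all lie above the control array of the same number, and replicate 1 is the lowest array of most groups.

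Origin recognition genes and licensing factors showed the same direction without a call over 3 replicates. Orc2, a core subunit of the origin recognition complex, was at 0.39 (adjusted p = 0.0768), Orc5 at 0.35, Orc1 at 0.30 and Orc4 at 0.17. Cdc6, the loader of the helicase, was at 0.50 (adjusted p = 0.0807) and dup at 0.21. Replicate 1 differed from the others here. The same-numbered differences were -0.35, 0.45 and 0.79 for Orc1, -0.74, 0.42 and 0.82 for Orc4 and -0.22, 0.38 and 0.46 for dup. Replicates 2 and 3 alone gave rises for all 4 origin recognition genes and both licensing factors. They ran from 0.36 ± 0.08 for Orc5 to 0.70 ± 0.08 for Cdc6 (SE, n = 2, adjusted p = 0.0161 and 6.80e-04 in limma).

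Among helicase activation factors the response was uneven. Sld5 read 8.73, 9.42 and 9.26 in control and 9.05, 9.80 and 10.03 in PTIP cells and rose by 0.49 ± 0.12 (adjusted p = 0.0347 in limma). Its partners in the GINS complex were at 0.04 (Psf1), 0.03 (Psf2) and 0.24 (Psf3), none of them called. The 95% interval of Psf2 ran from -0.21 to 0.27 and that of Sld5 from 0.23 to 0.75. Cdc45 was at 0.26 and Mcm10, a helicase cofactor, at 0.21. Cdc7, the kinase that triggers loaded helicases, had the lowest value of all members at -0.17 (adjusted p = 0.318) and was below its control in all 3 replicates (-0.14, -0.05 and -0.31).

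The polymerase genes divided in the same uneven way. Prim1, the catalytic primase subunit, had the largest change of the 37, with 9.03, 9.92 and 9.82 in control, 9.80, 10.79 and 10.90 in PTIP, 9.99, 9.58 and 9.90 in Pc/ph and 10.12, 10.64 and 10.82 in Pc/ph+PTIP cells. It rose by 0.90 ± 0.22 (adjusted p = 0.0397 in limma), or 1.87-fold, though PTIP replicate 1 lay inside the control range. The second primase subunit Prim2 was at 0.33 (-0.18, 0.44 and 0.73 by replicate) and the polymerase alpha subunit PolA2 at 0.23 (-0.27, 0.32 and 0.64). PolA1, the catalytic subunit of polymerase alpha, stood at -0.03 with an interval from -0.26 to 0.21, and PolE1, that of polymerase epsilon, at 0.04. On the arrays of replicates 2 and 3 Prim1, Prim2 and PolA2 rose, while PolA1 (-0.09) and PolE1 (0.31) were not called.

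The clamp and strand-processing genes had the lowest role median, 0.17, with a wide spread. Clamp loader subunits RfC38 and RfC3 were at 0.45 (adjusted p = 0.0672) and 0.29 (adjusted p = 0.0717), against 0.11 for the large subunit gene Gnf1 and -0.14 for RfC4. PCNA, the sliding clamp, read 13.72, 13.59 and 13.51 in control and 13.60, 13.61 and 13.51 in PTIP cells, so the groups overlapped, and its change of -0.03 had an interval from -0.19 to 0.13. RpA-70, the large subunit of the single-strand binding protein, was at 0.18, the flap endonuclease gene Fen1 at 0.30 and DNAlig1, which seals nicks, at 0.16. RnrL, the large ribonucleotide reductase subunit and the only nucleotide supply gene of the list measured, was at 0.21 (adjusted p = 0.162). PCNA, RpA-70, RnrL and RfC4 were also the 4 members with the highest mean signals, at percentiles 98.3 to 99.2 of all genes. The part of signal level in their small changes was not tested.

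Of the G1/S regulators E2f2 was called. It lay at 10.82, 11.31 and 11.25 in control and at 11.42, 11.72 and 11.67 in PTIP cells, without overlap, and rose by 0.47 ± 0.11 (adjusted p = 0.0316 in limma). Cdk2 was at 0.38, Rbf at 0.34, CycE at 0.22 and the E2F partner Dp at 0.14, and none of these was called. CycE was lower than control in replicate 1 (-0.31) and higher in replicates 2 and 3 (0.45 and 0.53). With replicates 2 and 3 alone CycE, Rbf and E2f2 rose, by 0.41 to 0.49.

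The calls rest on the replicate block and on single arrays. The log2 changes are the same with or without the block and when a Pc/ph or Pc/ph+PTIP array is left out. Those fits therefore cannot test the directions. Without the block limma called 0 of the 37 (6 at an unadjusted p under 0.05), where 0.376% of all genes were called. Quantile normalization gave 14, where 6.85% of all genes were higher, and cyclic loess 12, where 5.03% were. Leaving out single arrays gave 0 calls without control 3, PTIP 2 or PTIP 3, and 12 without Pc/ph 1. It gave 1 without Pc/ph 3, Pc/ph+PTIP 2 or Pc/ph+PTIP 3, each time Mcm6. Without control 1 it also gave 1, but this was Rbf (0.47), which the main fit did not call, so no call of the main fit was kept there. The median over the members stayed between 0.16 and 0.38 in these fits. By replicate the median difference was 0.03, 0.32 and 0.46, against all-gene medians of 0.03, 0.02 and 0.03. Above 0 were 20, 35 and 35 of the 37, and 53.7%, 55.5% and 55.6% of all genes. In replicate 1 the members thus lay at the all-gene median. Ptip itself differed from control by -0.72, -0.19 and -0.44, most in replicate 1. Whether the member changes follow Ptip depletion was not tested.

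**Figure D2:**
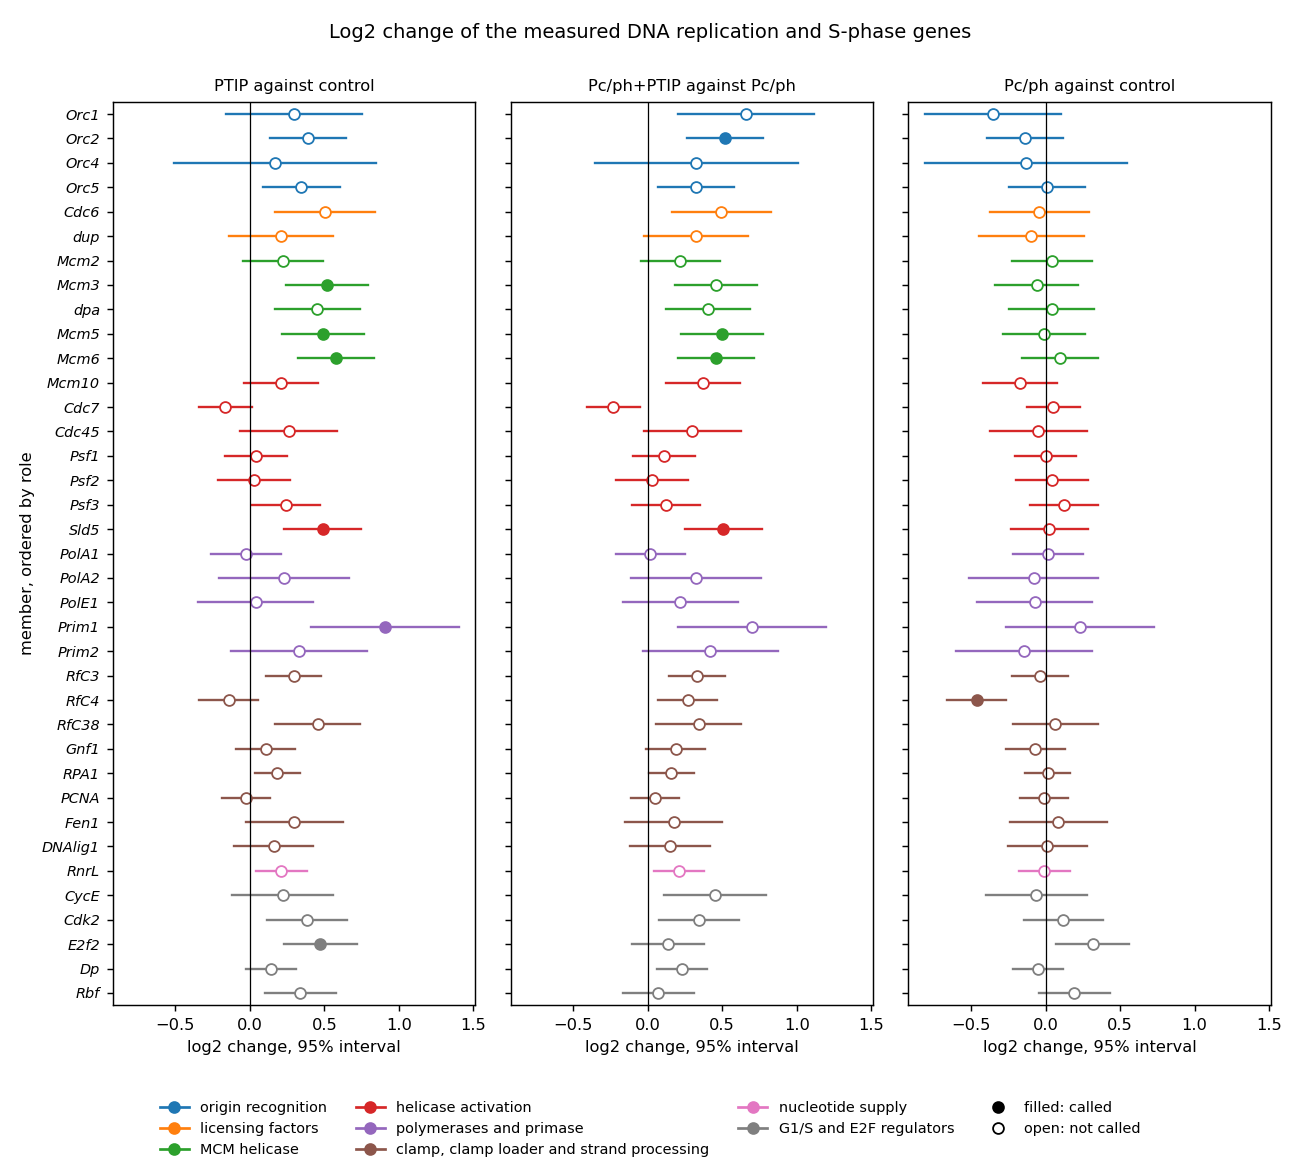
Log2 change (horizontal axes) with its 95% interval for the 37 members, grouped by role and coloured by it, in PTIP against control, Pc/ph+PTIP against Pc/ph and Pc/ph against control. Filled points are called at an adjusted p under 0.05. Points lie mostly right of 0 in the left and middle panels and around 0 in the right panel, where RfC4 at -0.46 is the single call.

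Part of the hemocyte-like marker list was lower in the same arrays. Of the 10 measured, 4 fell in PTIP cells and 0 rose, and the other 6 lay between -0.19 (vkg) and 0.16 (Pxn). Those that fell were the phagocytosis receptor genes eater (-1.68 ± 0.23, adjusted p = 0.00324 in limma), NimC1 (-2.24) and crq (-0.70), and Glt (-1.70). The summed signal of the 10 on the linear scale was 29127 to 55723 in control, 23233 to 46839 in PTIP, 34498 to 60005 in Pc/ph and 22981 to 47882 in Pc/ph+PTIP cells. Of the 6 germline markers bam rose in PTIP cells by 0.83 and aub fell by 0.57 on the log2 scale, and their summed signal was 1480 to 1597 in control and 823 to 1401 in PTIP cells. Of 5 neuronal markers 0 were called. The part of these shifts in the replication result was not tested.

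Pc/ph+PTIP against Pc/ph asks the same of PTIP where Pc and ph are targeted too, and it uses none of the arrays of the comparison above. The members again lay above 0, in 36 of 37 cases, where 54% of all genes did, with a median of 0.32 against 0.01 over all genes. Limma called 4 higher and 0 lower, namely Orc2 (0.52 ± 0.12, adjusted p = 0.0276), Sld5 (0.51 ± 0.12, adjusted p = 0.0326), Mcm5 (0.50 ± 0.12, adjusted p = 0.0468) and Mcm6 (0.46 ± 0.11, adjusted p = 0.0466), where 3.81% of all genes were called higher and 3.27% lower. Orc2 read 9.39, 9.41 and 9.65 in Pc/ph and 9.62, 10.19 and 10.21 in Pc/ph+PTIP cells, with the replicate 1 value of the latter inside the range of the former. Sld5 read 8.80, 9.23 and 9.45 against 9.46, 9.72 and 9.83, without overlap. Pc itself was 1.59 log2 units higher in Pc/ph+PTIP than in Pc/ph cells, and 5 of 10 hemocyte-like markers fell, namely eater (-2.27), NimC1 (-3.27), He (-1.40), crq (-0.77) and Glt (-2.07). Their part in the result was not tested.

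Further members had large values here that missed the call. Prim1 was at 0.70 (adjusted p = 0.113) and its groups did not overlap, Orc1 at 0.66 (adjusted p = 0.104), Cdc6 at 0.49 (adjusted p = 0.0959) and Mcm3 at 0.46 (adjusted p = 0.0634). Orc1 read 9.78, 9.81 and 9.997 in Pc/ph and 9.95, 10.75 and 10.89 in Pc/ph+PTIP cells, so that replicates 2 and 3 carried the difference. Cdc7 was lowest again at -0.23 ± 0.08 (adjusted p = 0.148), below its same-numbered Pc/ph array in all 3 replicates. E2f2, called in PTIP cells, was at 0.14 with an interval from -0.11 to 0.38. The 8 members whose groups did not overlap, all higher, compare with 3.95% of all genes.

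In replicates 2 and 3 alone 24 of the 37 rose against Pc/ph and 0 fell, where 11.2% of all genes were called higher. All 4 origin recognition genes, both licensing factors and all 5 MCM genes were among them. Orc1 was at 0.91 ± 0.09 and Prim1 at 0.99 ± 0.10 (SE, n = 2, adjusted p = 2.14e-04 and 1.65e-04 in limma). The median difference by replicate was 0.10, 0.47 and 0.35. Above 0 were 25, 34 and 35 members, and 51.8%, 52.6% and 52.5% of all genes. Ptip differed by -0.82, 0.05 and 0.12, and its relation to these medians was not tested. Without the block limma called 0 (3 at an unadjusted p under 0.05), where 0.401% of all genes were called. Quantile normalization gave 16, where 5.67% of all genes were higher, and cyclic loess 11, where 4.99% were. Leaving out arrays gave 0 calls without Pc/ph 2, Pc/ph 3 or any of the 3 Pc/ph+PTIP arrays, 2 without control 2, control 3, PTIP 2 or PTIP 3, 9 without PTIP 1 and 14 without Pc/ph 1. Without Pc/ph 2 the median was 0.18.

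The changes with PTIP dsRNA had a like profile over the members in both settings. Across the 37, which share the 12 arrays' chemistry and replicate numbers but no array between the contrasts, Pearson's r was 0.74 and Spearman's rho 0.71, and 33 members were above 0 in both and 1, Cdc7, was below 0 in both. Over all 11982 genes r was 0.72, so this likeness is not particular to replication genes, and 4908 were above 0 in both and 3446 below 0 in both. Mcm5, Mcm6 and Sld5 were called in both, which is 3 of the 6 and 3 of the 4. Over all genes 239 were called higher in both, of 414 and 456, so such overlap is not particular to the members. From replicates 2 and 3 alone 20 members were called in both, 87.0% of the 23 and 83.3% of the 24. The overlap over all genes was not computed for that fit. The interaction, which tests whether the PTIP effect differs between the settings, was called for 0 of 37 members in limma (1 at an unadjusted p under 0.05), where 0.242% of all genes were called. Its largest value was 0.41 ± 0.13 for RfC4 (adjusted p = 0.646), followed by Orc1 at 0.36 and E2f2 at -0.34.

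**Figure D3:**
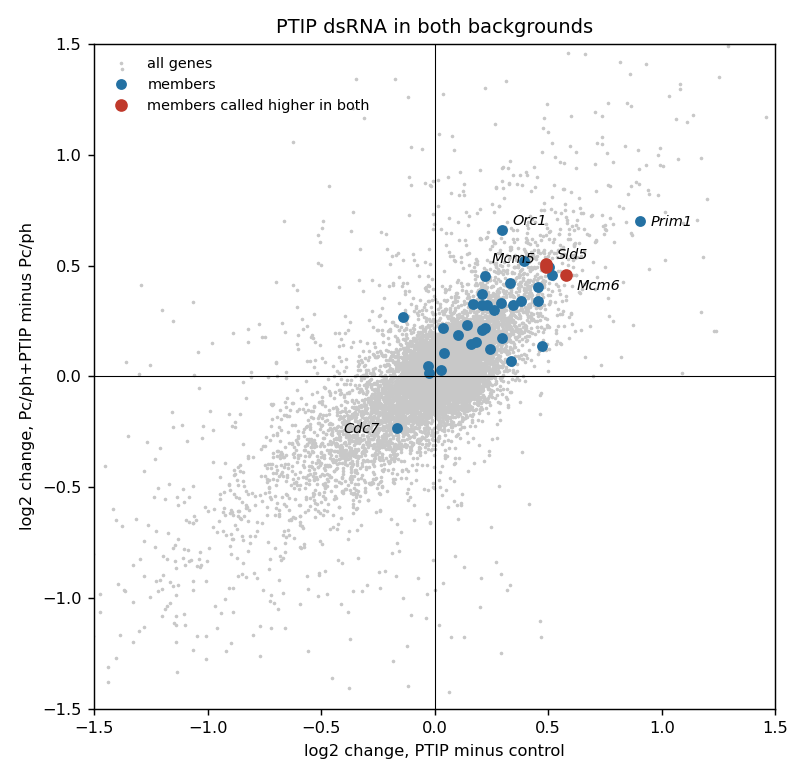
Log2 change in PTIP minus control (horizontal) against that in Pc/ph+PTIP minus Pc/ph (vertical) for all 11982 genes in grey and the 37 members in colour, with 127 genes outside the plotted range. The members sit almost entirely in the upper right, Prim1 farthest right and Orc1 high, with Cdc7 in the lower left.

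Pc/ph against control asks which of these genes differ when Pc and ph alone are targeted. One member was called. RfC4, a small subunit of the clamp loader, fell by 0.46 on the log2 scale (SE 0.09, adjusted p = 0.0317 in limma), where 1.08% of all genes were called lower and 0.918% higher. It read 13.45, 13.30 and 13.20 in control, 12.73, 12.89 and 12.95 in Pc/ph, 13.10, 13.22 and 13.21 in PTIP and 13.14, 13.12 and 13.11 in Pc/ph+PTIP cells. The 3 Pc/ph arrays were the lowest of the 12. Of the 10 hemocyte-like markers He (1.36) rose and Col4a1 (-0.95) and vkg (-0.97) fell in the same contrast, and their part in the result was not tested. The other clamp loader genes lay at -0.07 (Gnf1), -0.04 (RfC3) and 0.06 (RfC38).

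The RfC4 call needed the block (adjusted p = 0.352 in limma without it, where 0.259% of all genes were called). It was kept without control 3, PTIP 1 or Pc/ph+PTIP 1 and lost without any of the other 9 arrays, with a change between -0.54 and -0.33 over all alternatives. Over the 37 members the median was -0.01, with 17 above 0, against -0.00 over all genes, of which 49.7% were above 0. For 30 of the 37 the 95% interval lay within 0.5 of 0, and the exceptions were Orc1, Orc4, PolA2, Prim1, Prim2, RfC4 and E2f2. E2f2 was at 0.31 (adjusted p = 0.298), with all Pc/ph arrays (11.52, 11.34 and 11.47) above all controls, and Orc1 at -0.35 (adjusted p = 0.693), with all Pc/ph arrays below. Groups without overlap numbered 1 higher and 2 lower among the 37, near the shares of all genes, 3.22% and 3.41%. By replicate the median difference was 0.10, -0.22 and 0.06. On the Pc/ph replicate 2 array 33 of 37 members were below control, where 48.4% of all genes were above it. In replicates 2 and 3 alone Orc1 (-0.40) and RfC4 (-0.33) fell and Rbf (0.36) rose, where 4.32% and 2.87% of all genes were called lower and higher.

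**Figure D4:**
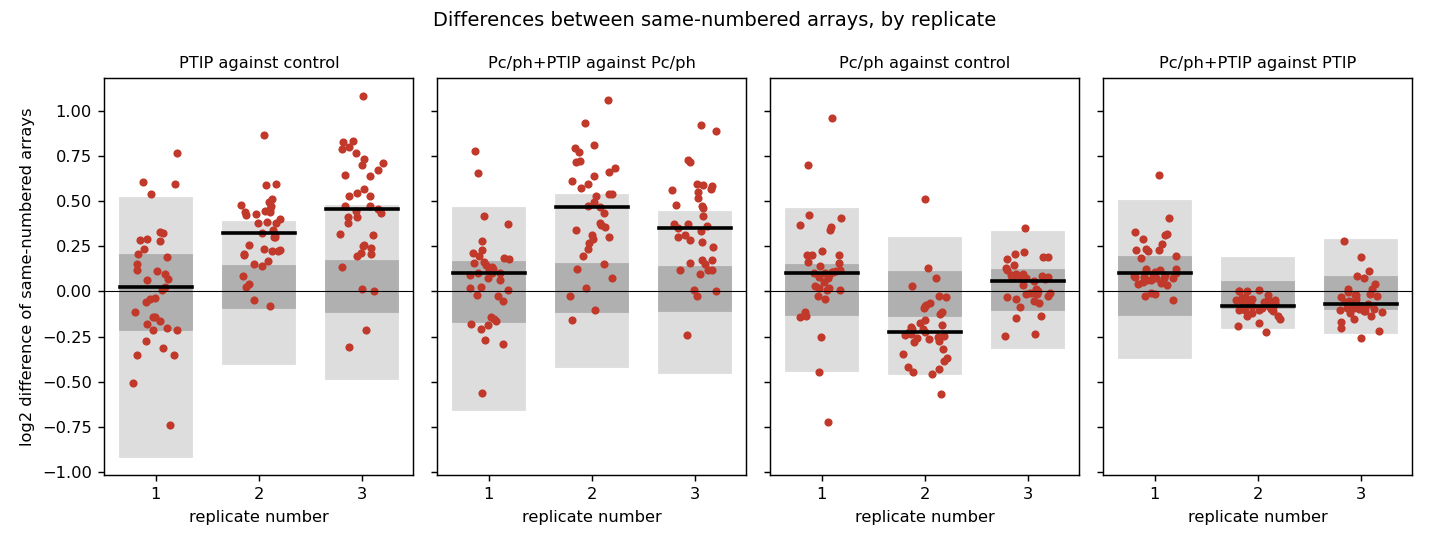
Log2 difference between same-numbered arrays (vertical axis) for the 37 members (points, black line at their median) by replicate number, in 4 comparisons. Grey boxes span the 5th to 95th and the 25th to 75th percentile of all genes. In replicates 2 and 3 the members' medians of 0.32 to 0.47 lie above the boxes' inner range for both PTIP contrasts, and in replicate 1 they lie within it.

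Pc/ph+PTIP against control asks what is seen when all targets are combined. It shares its control arrays with PTIP against control and Pc/ph against control. Its Pc/ph+PTIP arrays are shared with Pc/ph+PTIP against Pc/ph, so its calls are not independent of those above. The members' median was 0.26 against 0.01 over all genes, with 35 of 37 above 0, where 54.1% of all genes were. Limma called Mcm6 (0.55 ± 0.11, adjusted p = 0.0214), Sld5 (0.53 ± 0.12, adjusted p = 0.0272), Prim1 (0.93 ± 0.22, adjusted p = 0.0392) and E2f2 (0.45 ± 0.11, adjusted p = 0.0425) higher and 0 lower, where 3.33% of all genes were called higher and 3.53% lower. For these 4 and for Mcm5, Mcm2, RpA-70 and Cdk2 all Pc/ph+PTIP arrays lay above all controls, against 4.19% of all genes. For 1 member, RfC4, they all lay below, against 5.07% of all genes. Mcm5 was at 0.48 (adjusted p = 0.0519), Cdk2 at 0.46 (adjusted p = 0.0553) and dpa at 0.44, and Cdc7 (-0.18) and RfC4 (-0.19) were the only members below 0.

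Replicates 2 and 3 alone gave 21 rises and 0 falls, where 7.99% of all genes were called higher. The count was 0 without the block (6 at an unadjusted p under 0.05), where 0.401% of all genes were called. Quantile normalization gave 13, where 5.52% of all genes were higher, and cyclic loess 11, where 4.30% were. The count was also 0 without control 1, control 3 or any Pc/ph+PTIP array, 2 without PTIP 2, PTIP 3 or Pc/ph 3, 8 without PTIP 1 and 13 without Pc/ph 1. Germline bam rose by 0.96 here, and the hemocyte-like eater (-1.70) and Glt (-1.003) fell.

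Pc/ph+PTIP against PTIP asks what the Polycomb dsRNAs add to that of PTIP. Pc itself stood at 62.4% of PTIP cells here (log2 change -0.68 ± 0.20) and was not called. This limits what 0 member calls can show. For replication genes limma called 0 of 37, with 0 at an unadjusted p under 0.05 and 0.0417% of all genes called. Values ran from -0.12 for Mcm3 to 0.17 for CycE, with a median of -0.00. For 33 of the 37 the 95% interval lay within 0.5 of 0, and for all 37 within 1. The exceptions to the narrower bound were Orc4, Prim1, Prim2 and CycE, whose replicate 1 values stood apart. CycE differed by 0.65 in replicate 1 and by -0.08 and -0.06 in replicates 2 and 3.

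Members varied together from array to array. Over the 12 arrays the median pairwise correlation of the 37 was 0.82 (666 pairs), and after removing the group and replicate terms it was 0.65, with 87.2% of pairs above 0. These values share arrays and their normalization, and they describe the 12 arrays only. The same correlations were not computed over all genes, so they are not shown to be particular to replication genes.

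Genes next to these in the pathway were read from 5 further lists, with PTIP against control given here, where 3.46% of all genes were called higher and 4.68% lower. Of 20 further replication genes 1 rose and 0 fell (median 0.11), the polymerase epsilon subunit gene PolE4 at 0.39 ± 0.08 (adjusted p = 0.0197 in limma). Of 17 nucleotide synthesis genes 4 rose and 1 fell. The risers were r, which encodes the multifunctional enzyme that starts pyrimidine synthesis (0.75), the CTP synthase gene Ctps (0.58), the IMP dehydrogenase gene ras (0.56) and the purine synthesis gene Pfas (0.42). Nmdmc, a mitochondrial folate enzyme gene, fell by 1.02 on the log2 scale (adjusted p = 0.00725 in limma). Of 12 genes for replication-coupled chromatin Ssrp, a subunit of the FACT histone chaperone, rose by 0.35. Of 7 genes of the dREAM complex and its relatives, which hold E2F targets silent, Rbf2 (0.40) and mip40 (0.33) rose, and the list's median was 0.34. Of 16 other S-phase control genes Cdk4, the partner of cyclin D, rose by 0.41, and the median was 0.00.

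The same lists of 20, 17, 12, 7 and 16 genes were read in other contrasts. Against Pc/ph, the Pc/ph+PTIP cells showed rises in r (0.67), ras (0.51), Rbf2 (0.30), Nap1 (0.36) and dre4 (0.27), and 0 falls. Nap1 and dre4 are genes of histone chaperones. Of all genes 3.81% were called higher here and 3.27% lower. Against control the Pc/ph+PTIP cells showed rises in r (0.72), PolE4 (0.46), ras (0.46), Cdk4 (0.40), mip40 (0.34) and Rbf2 (0.33), and a fall of Nmdmc (-1.08). There 3.33% of all genes were called higher and 3.53% lower. In Pc/ph cells Nmdmc alone was called, at -0.81 ± 0.17 (adjusted p = 0.0459 in limma), where 1.08% of all genes were called lower and 0.918% higher.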

How the data were processed

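The authors deposited log2 RMA signals for each probe set on each array. The submitters' processing notes name RMA and limma, with no version. Of 18952 probe sets 183 controls were set aside and 18769 tested. A gene was read from its brightest single-symbol probe set over the 12 arrays. Here limma 3.58.1 (R 4.3.3) fitted, two-sided, 4 group means and the replicate number as a block (6 residual degrees of freedom), adjusted by Benjamini-Hochberg over all 18769 probe sets. Errors are SE of that fit unless stated.

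The block was used because same-numbered arrays deviated together after removing group means (r 0.489 to 0.880 over 18 pairs). Numbers 2 and 3 were no closer within than across numbers (0.489 to 0.775 against 0.396 to 0.784), so the block mainly carries replicate 1. Nothing in the sources says that replicates are separate cultures, so p-values cover only variation among these arrays, and their number limits precision. The members, lists and settings were chosen with earlier results of these data known. By rule, called members and the extremes of each role group were named, array values went to members with the smallest p per role group, and companion genes named are those called. The other members named, and PCNA's array values, were chosen after their values were seen. The fit was tested on simulated data. No sequence or coordinate is printed, since no sequence table was used here.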

Additional observations from a re-analysis of the deposited data

How the results depend on the processing

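All 15 called changes kept their direction under all 20 alternatives, but in many of these the direction could not change. The log2 change itself is the same without the block and with a replicate 1 term, an intensity trend, the dim-probe filter or gene means. It is also the same when an array outside the groups compared is left out. The 15 kept their call under quantile normalization, cyclic loess, an intensity trend with robust prior, the dim-probe filter and the gene means. They also kept it with replicates 2 and 3 only and with a single term for replicate 1, a setting chosen after seeing the data. Without the replicate block none was called, and all 4 counts above 0 went to 0 calls. Quantile normalization gave 14, 13 and 16 member calls for PTIP against control, Pc/ph+PTIP against control and Pc/ph+PTIP against Pc/ph (stated: 6, 4 and 4), cyclic loess 12, 11 and 11, and replicates 2 and 3 only 23, 21 and 24, with 3 for Pc/ph against control (stated: 1). The cause was not tested, except that the fit without block adds the replicate 1 shift to the spread. Leaving out single arrays gave 0 to 12, 0 to 13, 0 to 14 and, for Pc/ph against control, 0 to 1 calls. Counts of 0 for Pc/ph+PTIP against PTIP and for the interaction were 0 under all 20 alternatives.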
